A study of Drosophila melanogaster with 23 samples.

Results

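Whole brains of young adult females and males of Drosophila melanogaster were compared at 5 days after eclosion. The comparison rests on 6 of the 23 RNA-seq libraries of the study, 3 from females and 3 from males, and covers all genes. Each library came from a pool of 18 dissected brains of Canton-S, a wild-type laboratory strain that carries no transgene or introduced mutation. Flies had been separated by sex after collection, and whether the females had mated is not given in the sources used here. The names F5A, F5B and F5C stand for replicates A, B and C of the 5-day-old females, and M5A, M5B and M5C for those of the males. The 17 other libraries, from flies of 20, 30 and 40 days, entered the fit for the estimate of the spread between libraries, and they give the same comparison in libraries of their own. The 30-day-old males had 2 libraries and every other group 3.

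In flies, sex is set within each cell by the number of X chromosomes. In females this number turns on Sex lethal (Sxl), which directs the splicing of transformer (tra) and through it of doublesex (dsx) and fruitless (fru), and which blocks production of the protein MSL-2. In males MSL-2 assembles the dosage compensation complex, which holds the noncoding RNAs roX1 and roX2 and raises transcription of the single X chromosome. Yolk proteins are made in females by the fat body and by the follicle cells of the ovary, and part of the fat body lies around the brain in the head.

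Of the 11332 genes that passed the filter on low counts, 19 differed between the sexes at a 5% false discovery rate (FDR), which is 0.168% of the genes tested. Of these, 12 were higher in females (0.106% of the genes tested) and 7 were higher in males (0.0618%). The genes higher in females were the yolk protein genes Yp1, Yp2 and Yp3, the fat body gene fit, Obp99a, Ndg, Cht2, arg, CG9505 and the noncoding RNAs CR45601, CR45046 and CR45629. Those higher in males were roX1, roX2, msl-2, Obp99b, brv3, fs(1)Yb and the noncoding RNA CR43283. Levels are counts brought to a common total of 1e+06 (CPM) and scaled by the trimmed mean of M values (TMM), as mean ± SD of 3 libraries. Differences are log2 values of females minus males with the standard error (SE) of the fit, and p-values are from the quasi-likelihood test of edgeR adjusted over all genes tested. Genes called at this FDR are all named here, of which arg, CR45046, CR45629, brv3 and fs(1)Yb averaged under 5 CPM and were named after their values were seen.

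**Figure D1:**
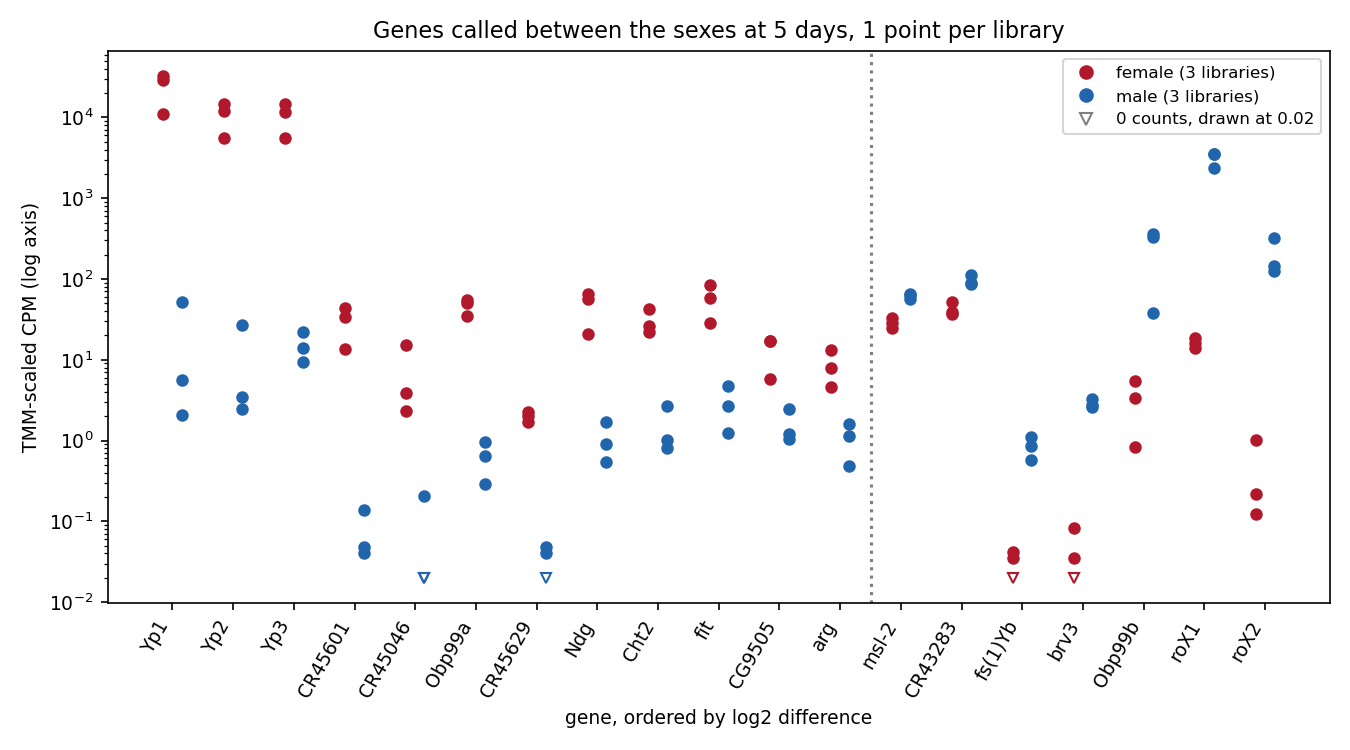
TMM-scaled CPM on a log axis of the 19 genes called between the sexes at 5 days, with 1 point for each of 3 female (red) and 3 male (blue) libraries and open triangles for libraries with no count. The dotted line parts the 12 genes higher in females from the 7 higher in males, and in each gene the libraries of the sexes do not overlap.

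The 6 libraries held 21133499 to 28687450 counts, so that 3 counts, taken as the limit that a count of 0 allows, corresponded to 0.105 to 0.142 CPM. Levels of neuron markers were high in all of them, at 6334 to 13668 CPM summed over 16 genes, and glia markers summed to 6236 to 11477 CPM over 14 genes. Transcripts of other tissues were unevenly spread. F5B stood apart in 25 midgut digestive enzyme genes, whose sum was 25568 CPM there against 28.8 to 2061 CPM in the other 5 libraries. F5A had the highest sum of 24 phototransduction genes of the retina, 29836 CPM against 4618 to 14905 CPM. The first principal component of the 6 libraries held 47.7% of the variance and set F5B at one end and F5C and M5B at the other, so it did not part the sexes. Within a sex, pairs of libraries differed far beyond counting error, with chi-square values of 165 to 453 per degree of freedom.

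Dosage compensation gave the clearest difference by adjusted p. The noncoding RNA roX1 (X chromosome, 3857230 to 3862697, minus strand) was at 14.1, 16.1 and 18.8 CPM in F5A, F5B and F5C and at 3522, 3509 and 2368 CPM in M5A, M5B and M5C. The groups were far apart, with means of 16.3 ± 2.33 and 3133 ± 663 CPM. The log2 difference was -7.58 (SE 0.36), with an adjusted p of 4.48e-10.

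The second noncoding RNA of the complex, roX2 (X chromosome, 11579065 to 11580432, plus strand), was near the limit of detection in females. It had 0.216, 0.125 and 1.02 CPM in F5A, F5B and F5C and 144, 320 and 126 CPM in M5A, M5B and M5C. Females averaged 0.452 ± 0.490 CPM and males 196 ± 107 CPM, and the log2 difference was -8.69 (SE 0.94, adjusted p = 0.000330). The lowest male library was above the highest female library by a wide margin in both RNAs.

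The gene of the male-limiting subunit, msl-2 (chromosome arm 2L, 3462218 to 3466112, minus strand), differed far less than the roX RNAs. It was at 28.1, 24.9 and 33.3 CPM in F5A, F5B and F5C and at 63.5, 64.4 and 56.1 CPM in M5A, M5B and M5C. Females had 28.8 ± 4.26 CPM and males 61.3 ± 4.58 CPM, a log2 difference of -1.09 (SE 0.14, adjusted p = 0.00106). Counts of msl-2 in females were 597 or more in each library, and counts per gene do not tell its spliced forms apart.

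The other subunits measured did not pass the test. They were the helicase gene mle, the acetyltransferase gene mof, msl-1, msl-3 and Clamp, which encodes a DNA-binding protein that helps the complex to find the X. Their log2 differences lay between -0.20 and 0.03, and their female and male libraries overlapped. In all, 3 of the 8 dosage compensation genes were called, all of them higher in males, and the list had a median of -0.19 against -0.02 over all genes tested.

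The cascade of sex determination gave smaller differences, none of which passed the test among its 12 genes with edgeR. The splicing factor gene tra was at 17.5, 16.8 and 17.1 CPM in F5A, F5B and F5C and at 12.4, 11.1 and 11.3 CPM in M5A, M5B and M5C, with a log2 difference of 0.56 (SE 0.17, adjusted p = 0.754). The libraries of the sexes did not overlap. The gene at the top of the cascade, Sxl, was at 320, 276 and 421 CPM in females and 242, 262 and 168 CPM in males, again without overlap, with a log2 difference of 0.60 (SE 0.22, adjusted p = 1).

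The transcription factor gene dsx had values of 47.1, 35.4 and 28.2 CPM in females and 63.9, 41.2 and 57.8 CPM in males, which overlap, with a log2 difference of -0.56 (SE 0.24, adjusted p = 1). These 3 genes had unadjusted p-values of 0.00412, 0.0154 and 0.0303. The transcripts of Sxl, tra, dsx and fru are known to be spliced differently in the sexes, which counts per gene do not show. DESeq2 called tra when fitted to the 6 libraries and no gene of the list when fitted to all libraries, and edgeR called Sxl (adjusted p = 0.0107) once a trend with transcript length was removed from each library.

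Yolk protein genes showed the widest gap on the CPM scale. The most abundant, Yp1 (X chromosome, 10053811 to 10055498, plus strand), was at 32683, 29090 and 10941 CPM in F5A, F5B and F5C and at 2.06, 52.6 and 5.68 CPM in M5A, M5B and M5C. Its log2 difference was 10.24 (SE 1.73, adjusted p = 0.0162).

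Its neighbour Yp2, which lies head to head with it (X chromosome, 10050951 to 10052636, minus strand), was at 14829, 11986 and 5638 CPM in females and at 2.47, 26.8 and 3.43 CPM in males. The log2 difference was 9.96 (SE 1.62, adjusted p = 0.0118). In both genes F5C was the lowest female and M5B the highest male library.

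The third member, Yp3 (X chromosome, 13759546 to 13761547, plus strand), was at 14539, 11734 and 5509 CPM in females and at 9.29, 21.8 and 14.1 CPM in males. Its male libraries lay closer together than those of Yp1 and Yp2, and its log2 difference of 9.46 (SE 1.11) had an adjusted p of 0.000657. The yolk protein genes together took 6.12%, 5.08% and 2.20% of all counts in F5A, F5B and F5C, against 0.00139%, 0.0100% and 0.00231% in M5A, M5B and M5C. All 3 of the list were called. With M5A or M5C left out, Yp1 and Yp2 were no longer called, at adjusted p-values of up to 0.142, whereas Yp3 was called whichever of the 6 libraries was left out.

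The noncoding RNA gene CR45601 (X chromosome, 10054235 to 10055109, minus strand) lies wholly within Yp1 on the opposite strand, and all 875 bases of it overlap Yp1 exons. It had 1021, 812 and 384 counts in F5A, F5B and F5C and 1, 1 and 3 counts in M5A, M5B and M5C. These were 0.135%, 0.116% and 0.123% of the Yp1 counts of the same female libraries, in which the Yp1 level ranged from 10941 to 32683 CPM. In M5A, M5B and M5C the shares were 2%, 0.0909% and 2.42%, each resting on 1 to 3 counts of CR45601. Pooled over libraries, the ratio of females to males was 393, with an exact 95% interval of 168 to 1210 that covers counting error only, and the adjusted p was 0.00218. The paper counted reads that mapped unambiguously, in the union mode of HTSeq. The overlap given here is from the Ensembl annotation, whereas the paper took its annotation of dm6 from UCSC, in which the overlap was not checked. The strand setting itself is not given in the sources used here. Whether some reads of Yp1 were counted for CR45601 was not tested.

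Of the 10 genes on the list for the head fat body, fit alone was called. This gene (chromosome arm 3R, 21883924 to 21884454, minus strand) encodes a secreted protein of the fat body that is made mainly in females. It was at 85.3, 57.5 and 28.2 CPM in F5A, F5B and F5C and at 4.73, 1.24 and 2.70 CPM in M5A, M5B and M5C. Females averaged 57.0 ± 28.6 CPM and males 2.89 ± 1.75 CPM, a log2 difference of 4.29 (SE 0.59, adjusted p = 0.00218). As pools were sequenced in bulk, fewer cells of a type and less RNA per cell cannot be told apart.

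The noncoding RNA gene CR45046 (21878672 to 21884101, minus strand) overlaps the end of fit on the same strand by 32 exonic bases. It had 352, 93 and 67 counts in F5A, F5B and F5C and 5, 0 and 0 counts in M5A, M5B and M5C. In the female libraries the counts were 17.8%, 6.73% and 8.33% of those of fit, a less even ratio than for CR45601 and Yp1 in the same libraries. The pooled ratio of females to males was 90.7 (exact 95% counting interval 38.6 to 280), with an adjusted p of 0.0238, and the call was lost without F5A, M5B or M5C.

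Other fat body genes were set apart by library more than by sex. The larval storage protein gene Lsp2 was at 208, 211 and 98.1 CPM in females and at 1847, 130 and 2667 CPM in males, so that M5A and M5C were high and M5B was among the females. In the same way Lsp1beta was at 67.8, 39.6 and 13.5 CPM in females and at 482, 35.04 and 665 CPM in males. Their log2 differences of -3.17 (SE 1.29) and -3.29 (SE 1.04) had adjusted p-values of 1 and 0.822. The lipophorin gene Rfabg, the most abundant of the list, had 3299 to 7761 CPM in females and 3347 to 6869 CPM in males. Over the list the median log2 difference was -0.10.

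A pair of odorant binding protein genes differed in opposite directions. Odorant binding proteins are small secreted carriers of hydrophobic molecules, and some are made outside the olfactory organs. The gene Obp99a (chromosome arm 3R, 29671657 to 29672334) was at 50.8, 55.1 and 35.2 CPM in F5A, F5B and F5C and at 0.288, 0.956 and 0.641 CPM in M5A, M5B and M5C. Females averaged 47.0 ± 10.5 CPM and males 0.628 ± 0.334 CPM, with a log2 difference of 6.22 (SE 0.77, adjusted p = 0.000873).

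Lying close by on 3R, Obp99b (29716254 to 29716896) was at 3.32, 5.41 and 0.841 CPM in females and at 360, 37.5 and 331 CPM in males. Its log2 difference was -6.25 (SE 1.01, adjusted p = 0.0118). M5B was the lowest of the males here too, far below the other males, yet above every female library. Leaving out F5A, F5C or M5C ended the call, with adjusted p-values of up to 0.115. The other 29 odorant binding protein genes tested were not called, and the list had a median of -0.21.

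Further genes higher in females have roles in the extracellular matrix and in metabolism. Nidogen, a glycoprotein of basement membranes, is encoded by Ndg (chromosome arm 2R), which was at 56.6, 64.6 and 20.9 CPM in F5A, F5B and F5C and at 1.69, 0.908 and 0.549 CPM in M5A, M5B and M5C. The log2 difference was 5.48 (SE 0.89, adjusted p = 0.0118). The chitinase gene Cht2 (arm 3L) was at 22.1, 26.4 and 41.9 CPM in females and at 2.67, 0.813 and 1.01 CPM in males, a log2 difference of 4.32 (SE 0.72, adjusted p = 0.0118). Both calls were lost without M5B or M5C.

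The arginase gene arg (X chromosome) was at 13.4, 7.87 and 4.62 CPM in females and at 1.15, 0.478 and 1.60 CPM in males, a log2 difference of 2.99 (SE 0.53, adjusted p = 0.0190). Its exons share 673 bases with those of elav on the opposite strand, and elav differed by -0.09 (adjusted p = 1). CG9505 (arm 2L) was at 16.9, 17.2 and 5.71 CPM in females and at 2.43, 1.19 and 1.05 CPM in males, a log2 difference of 3.08 (SE 0.56, adjusted p = 0.0238). Leaving out 1 library ended the call of arg in 3 of 6 cases (F5A, M5A and M5B) and that of CG9505 in 4 (F5A, F5B, M5B and M5C). Of the 12 genes higher in females, 10 had their lowest female value in F5C.

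The last of these 12, the noncoding RNA CR45629 (X chromosome, 10217627 to 10219303, plus strand), was rare. It had 39, 48 and 64 counts in F5A, F5B and F5C and 1, 1 and 0 counts in M5A, M5B and M5C. The pooled ratio was 66.9 (exact 95% counting interval 18.2 to 557), and the adjusted p was 0.00717.

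Another 3 genes were higher in males, of which CR43283 was the most abundant. This noncoding RNA (3R, 11247631 to 11256123, minus strand) was at 36.6, 39.1 and 52.1 CPM in F5A, F5B and F5C and at 87.8, 113 and 90.4 CPM in M5A, M5B and M5C. Females had 42.6 ± 8.34 CPM and males 97.1 ± 14.03 CPM, a log2 difference of -1.19 (SE 0.22, adjusted p = 0.0238), and the call was lost without F5A, F5B, M5B or M5C.

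The other 2 were rare X-linked genes. The gene brv3, which encodes a membrane protein of the TRP channel superfamily, had 0, 2 and 1 counts in F5A, F5B and F5C and 80, 54 and 61 counts in M5A, M5B and M5C. The pooled ratio of males to females was 73.4 (exact 95% counting interval 24.7 to 359, adjusted p = 0.0118), and without F5A or F5C the adjusted p reached 0.0688. The gene fs(1)Yb, which acts in the piRNA pathway of the somatic ovary, had 0, 1 and 1 counts in females and 57 counts summed over the males. Its ratio was 32.2 (8.51 to 272, adjusted p = 0.0462), and it was called in none of the 6 fits that left out 1 library.

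**Figure D2:**
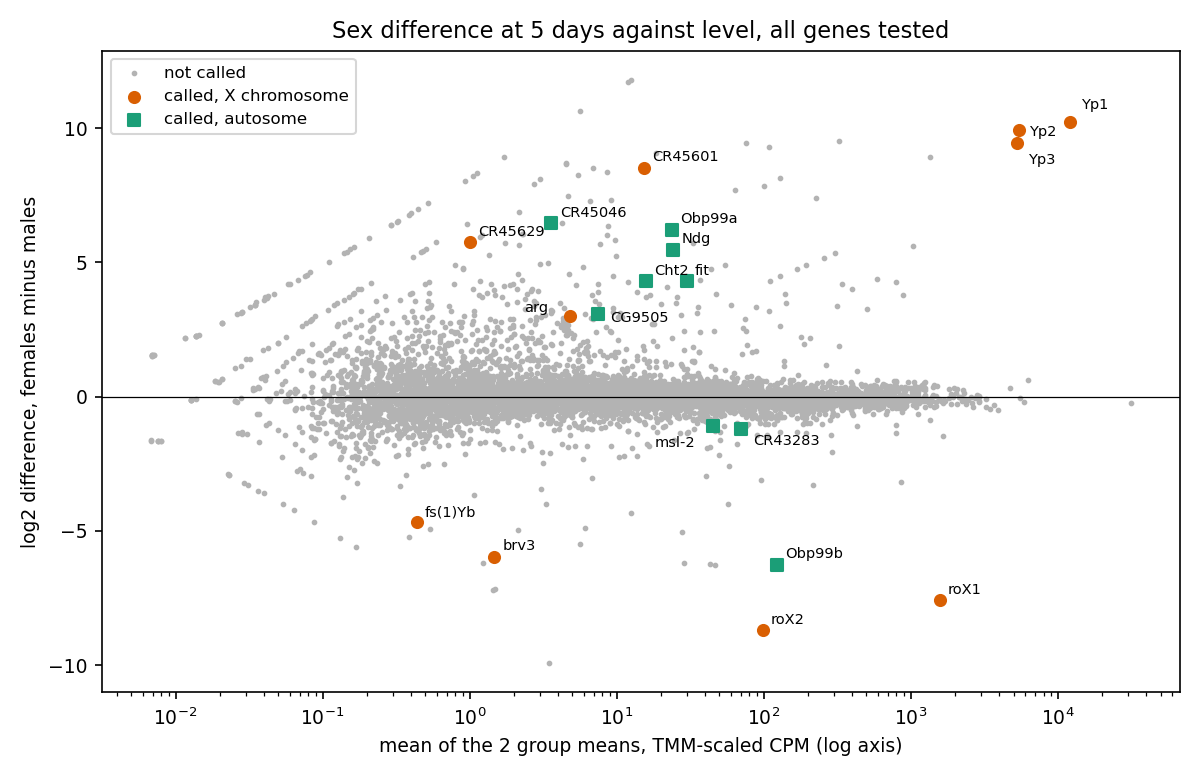
Log2 difference of females minus males at 5 days against the mean of the group means in TMM-scaled CPM (log axis) for the 11332 genes tested, with called genes on the X chromosome as orange circles and on autosomes as green squares. Many grey points have differences as large as those of called genes: of 1028 genes beyond 1 on the log2 scale, 19 were called.

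Large differences that did not pass the test were common. A difference of more than 1 on the log2 scale was found in 1028 genes, 698 of them higher in females and 330 in males, and only 19 of these were called. Of the 1028 genes, 236 had no overlap between the libraries of the sexes. Over all genes tested, 826 (7.29%) had no overlap, 535 (4.72%) with females above males and 291 (2.57%) with males above females. With 3 libraries of each sex, a lack of overlap is common without any sex difference, so these genes are not a count of sex differences. Before adjustment, 452 genes (3.99%) had a p under 0.05, 294 higher in females (2.59%) and 158 in males (1.39%). This share is below the 5% that such a threshold allows where no gene differs.

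Just outside the threshold lay CG4586 (X chromosome), at 0.345, 0.333 and 0.841 CPM in females and 6.002, 6.023 and 4.85 CPM in males, with an adjusted p of 0.0501. It was followed by the gene rost, named rolling stone for its role in muscle formation, with 82.0, 95.6 and 16.9 CPM in F5A, F5B and F5C against 3.21, 4.25 and 11.9 CPM in males (adjusted p = 0.0833). Both were named after their values were seen. Just inside were fs(1)Yb, at 0.0462, and CG9505, CR43283 and CR45046, at 0.0238.

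The number of calls differed between tools and between sets of libraries. The same test fitted to the 6 libraries alone called 3 genes, roX1, Yp3 and Obp99a, whereas DESeq2 called 63 genes in the fit of all 8 groups, 46 of them higher in females, among which were all 19. Without 5 libraries rich in midgut transcripts, 8 of the 19 were called, namely roX1, roX2, msl-2, Yp3, CR45601, fit, Obp99a and brv3. Leaving out each of the 6 libraries in turn, 8 of the 19 were called every time, namely roX1, roX2, msl-2, Yp3, CR45601, fit, Obp99a and CR45629. Counts of called genes fell to 10 without M5C and to 12 without F5A.

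By chromosome, 10 of the 19 called genes were on the X, 6 of them higher in females and 4 in males, and the other 9 were on autosomes. The X held 1846 of the genes tested (16.3%), of which 0.542% were called, against 0.0962% of the 9354 autosomal genes. Libraries of the sexes did not overlap for 12.9% of X-linked genes and for 6.19% of autosomal genes, and on each of the large arms 2L, 2R, 3L and 3R this share was 5.28% to 7.08%. On the X, 151 of these genes were higher in females and 88 in males.

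The level of the X as a whole was nearly alike in the sexes. The median log2 difference was 0.01 on the X, with quartiles of -0.15 and 0.20, and -0.02 on the autosomes, with quartiles of -0.17 and 0.16. Library by library, the median of X-linked genes relative to autosomal genes was -0.02, 0.00 and 0.07 (log2) in F5A, F5B and F5C and 0.00, 0.02 and -0.06 in M5A, M5B and M5C. The sexes overlapped in this measure. On chromosome 4, where 94 genes were tested and none was called, the median was -0.10.

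**Figure D3:**
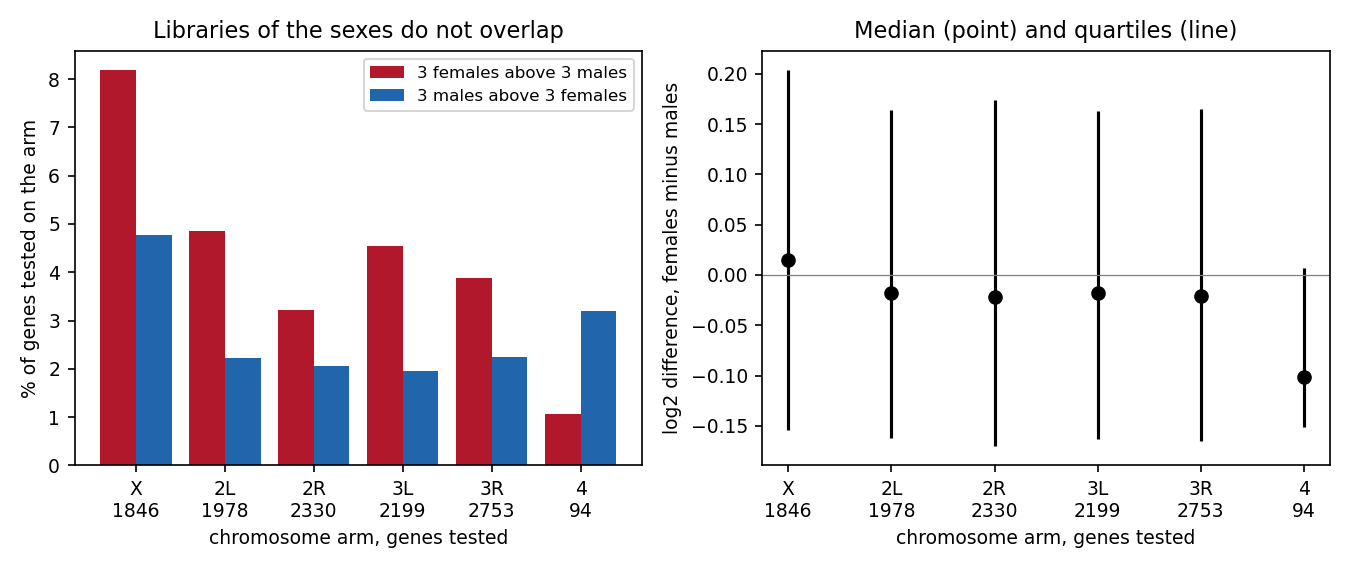
Left, percent of the genes tested on each chromosome arm for which all 3 female libraries lay above all 3 male libraries (red) or the reverse (blue). Right, median and quartiles of the log2 difference of females minus males, which were 0.01 (quartiles -0.15 and 0.20) on the X and near 0 on the large autosomal arms.

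Genes of the Y chromosome gave almost no counts in either sex. The 13 protein-coding genes of the list, which serve in the male germ line, summed to 0.0431, 0 and 0.0701 CPM in F5A, F5B and F5C and to 0.164, 0.191 and 0.183 CPM in M5A, M5B and M5C, and none passed the filter. Over all 71 genes annotated on the Y, libraries held 10 to 46 counts.

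Markers of reproductive tissues were low, with one exception. Genes of the female germ line and egg summed to 12.4, 35.6 and 221 CPM in F5A, F5B and F5C and to 2.59, 3.97 and 1.65 CPM in M5A, M5B and M5C over 18 genes. Of the 15 tested, none was called by edgeR, 10 were higher in females before adjustment (p under 0.05), and the median log2 difference was 6.85. With the 6 genes that had no count in any male library set at their bound, against 3 counts in each male library, the median was 4.58. DESeq2 called 2 of them in the fit of 8 groups and 4 in the 6 libraries. The 6 genes without a count in the 5-day males passed the filter on low counts only through other libraries. Their direction was thus fixed beforehand, and the 2 medians and the count of 10 do not test it.

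The vitelline membrane gene Vm26Aa was at 0.862, 0.0416 and 74.5 CPM in females and at 0 in the 3 male libraries. The yolk protein receptor gene yl was at 3.15, 2.71 and 35.7 CPM in females and at 0, 0.0956 and 0 CPM in males. F5C was the highest female library in 8 of the 10 genes and F5B in the other 2, whereas the yolk protein genes were lowest in F5C. Their part in the sex differences above was not tested.

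Testis markers summed to 2.38 to 11.1 CPM over 21 genes and markers of the male accessory gland to 0.172 to 10.9 CPM over 18 genes, in both cases with overlap between the sexes. No gene of either list was called, and the highest sum for the accessory gland was that of M5C.

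**Figure D4:**
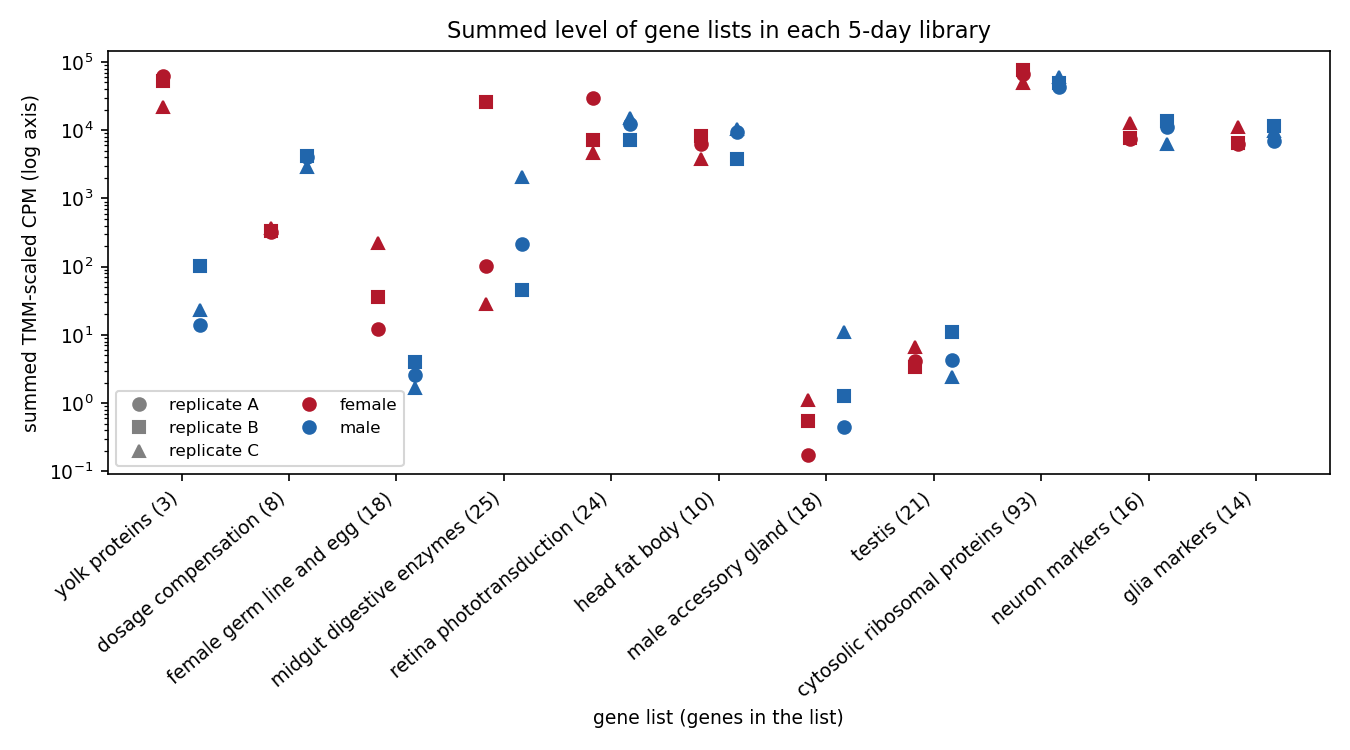
Summed TMM-scaled CPM (log axis) of 11 gene lists in the 6 libraries, females in red and males in blue, with the replicate letter given by the shape. The sexes were apart for yolk proteins, dosage compensation, and female germ line and egg genes, F5B was apart for midgut enzymes, and the other lists overlapped.

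Among the broader families, cytosolic ribosomal protein genes had a median difference above 0 and no call. Their summed level was 66216, 76139 and 49630 CPM in F5A, F5B and F5C and 43101, 49746 and 60040 CPM in M5A, M5B and M5C, which overlap. Of 85 genes tested, 83 had a log2 difference above 0 and the median was 0.32, with 24 at an unadjusted p under 0.05, all of them higher in females. The slope of log2 level on transcript length was -0.06, -0.06 and 0.07 per doubling of length in F5A, F5B and F5C. In M5A, M5B and M5C it was 0.03, 0.07 and -0.06. The libraries with the negative slopes had the highest sums, and F5C was within the male range. Beyond its sign the sums did not follow the slope, as M5A had the lowest sum at a slope of 0.03. With the trend on length removed from each library the median was 0.27, with 82 genes above 0. In that setting 34 genes had an unadjusted p under 0.05, all of them higher in females. The median was 0.17 without F5B, 0.19 without M5A, 0.50 without M5C and 0.17 without the 5 libraries rich in midgut transcripts. The gene with the smallest p, RpLP2 of the ribosomal stalk, was at 891, 1123 and 764 CPM in females and 551, 665 and 658 CPM in males, with a log2 difference of 0.57 (SE 0.17, adjusted p = 0.754). Neither edgeR nor DESeq2 called a gene of this list.

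Cytochrome P450 genes, which encode enzymes of hormone and toxin metabolism, had a median below 0 and no call by edgeR. Of 74 genes tested, 12 were higher in males and 1 in females before adjustment (p under 0.05), and the median log2 difference was -0.18. The gene with the smallest p, Cyp4d21, was at 2.97, 0.458 and 0.140 CPM in F5A, F5B and F5C and at 54.7, 4.21 and 12.2 CPM in M5A, M5B and M5C. Its log2 difference of -4.32 (SE 1.21) had an adjusted p of 0.637, and DESeq2 called it (adjusted p = 0.0493 in the fit of 8 groups). In all 12 genes higher in males, M5B was the lowest male library, as it was for Obp99b, Lsp2 and Lsp1beta.

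No difference was called by edgeR for genes of neurons and their signals, but neuron markers varied widely within each sex. They summed to 7384, 7695 and 12908 CPM in F5A, F5B and F5C. In M5A, M5B and M5C the sums were 11304, 13668 and 6334 CPM. The highest sums, in F5C, M5A and M5B, were in the libraries with positive slopes on transcript length. A lack of calls therefore does not show equal levels. No gene was called among 16 neuron markers, 14 glia markers, 19 genes of vesicle release, 32 neuropeptide genes, 27 genes of monoamine transmission or 14 circadian clock genes, and the medians of these lists ran from -0.19 to 0.07. At an unadjusted p under 0.05, only 1 neuropeptide gene and 1 clock gene of these lists differed, both higher in males. Electron transport chain genes (47 tested, median -0.11) and antimicrobial peptide genes (31 tested, median 1.71) held no call by edgeR either. In the latter, the sum was 9426 CPM in F5A against 697 to 3630 CPM in the other 5 libraries. DESeq2 called 1 antimicrobial peptide gene and none of the other 7 lists of this paragraph.

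The same comparison at other ages shares no library with that at 5 days, but it shares the filter and the estimate of the spread. It is therefore not fully independent of the calls at 5 days. It called 39 genes at 20 days (0.344% of the genes tested), 113 at 30 days (0.997%) and 41 at 40 days (0.362%). Calls higher in females made up 0.168%, 0.644% and 0.0794% of the genes tested at these ages, and calls higher in males 0.176%, 0.353% and 0.282%. Depth differed between ages, with totals of 21133499 to 28687450 counts at 5 days and 11498366 to 16036581 at 20 days. Totals were 12541109 to 25981392 at 30 days and 6770442 to 16124005 at 40 days, and the part of depth in the calls was not tested. Of the 19 genes called at 5 days, 17 were also called at 20 days, 17 at 30 days and 9 at 40 days, each with the same sign. The 5 libraries rich in midgut transcripts, with mex1 above 10 CPM, were F5B, replicates A and B of the 30-day females, replicate A of the 40-day females and replicate C of the 40-day males. Without them the count was 9 at 20 days, where no library was left out, and 3 at 40 days. Only replicate C of the females was left at 30 days, so no count is given for that age. With all libraries, the count at 30 days was 10 in a test against 1.5-fold and with a replicate block. In the fit of all libraries, 9 genes were called at all 4 ages, namely roX1, roX2, msl-2, Yp3, fit, Obp99a, arg, CR45629 and CR43283. The libraries of the sexes did not overlap in 19 of the 19 genes at 20 days, 18 at 30 days and 17 at 40 days. The share over all genes tested is given here for 5 days alone (7.29%), so the counts at later ages have no background of their own to be read against. At 30 days the males had 2 libraries, which makes an overlap less likely.

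The sex difference of roX1 was -6.83 (SE 0.35) at 20 days, -6.38 (SE 0.35) at 30 days and -6.75 (SE 0.35) at 40 days, and that of msl-2 was -1.17, -1.23 and -0.88. For fit the log2 difference was 4.29 at 5 days and 5.59, 6.17 and 5.47 at the later ages. The yolk protein gene Yp3 averaged 1421 ± 662 CPM in 40-day-old females against 10594 ± 4622 CPM at 5 days, with male means of 41.6 ± 23.6 and 15.1 ± 6.30 CPM, and its sex difference at 40 days was 5.09 (SE 0.92, adjusted p = 0.0202).

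Obp99b and CG9505 were called at 5 days alone. For Obp99b the female range was 0.841 to 5.41 CPM at 5 days, 13.9 to 43.4 CPM at 20 days, 29.0 to 135 CPM at 30 days and 75.1 to 128 CPM at 40 days, and the male range was 37.5 to 360 CPM at 5 days and 27.6 to 123 CPM at 40 days. Its log2 difference was -6.25, -3.15, -0.82 and 0.48 in this order of ages, and females and males overlapped at 30 and 40 days. CG9505 had log2 differences of 3.08, 2.16, 2.05 and -0.45.

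Whether a sex difference at 5 days differed from that at a later age was tested as an interaction in edgeR, and no gene passed at any age. Before adjustment, p was under 0.05 for 455 genes at 20 days (4.02% of those tested), 992 at 30 days (8.75%) and 712 at 40 days (6.28%). For Obp99b the adjusted p of the interaction was 0.337 at 40 days. These contrasts share the 5-day libraries with the calls above.

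**Figure D5:**
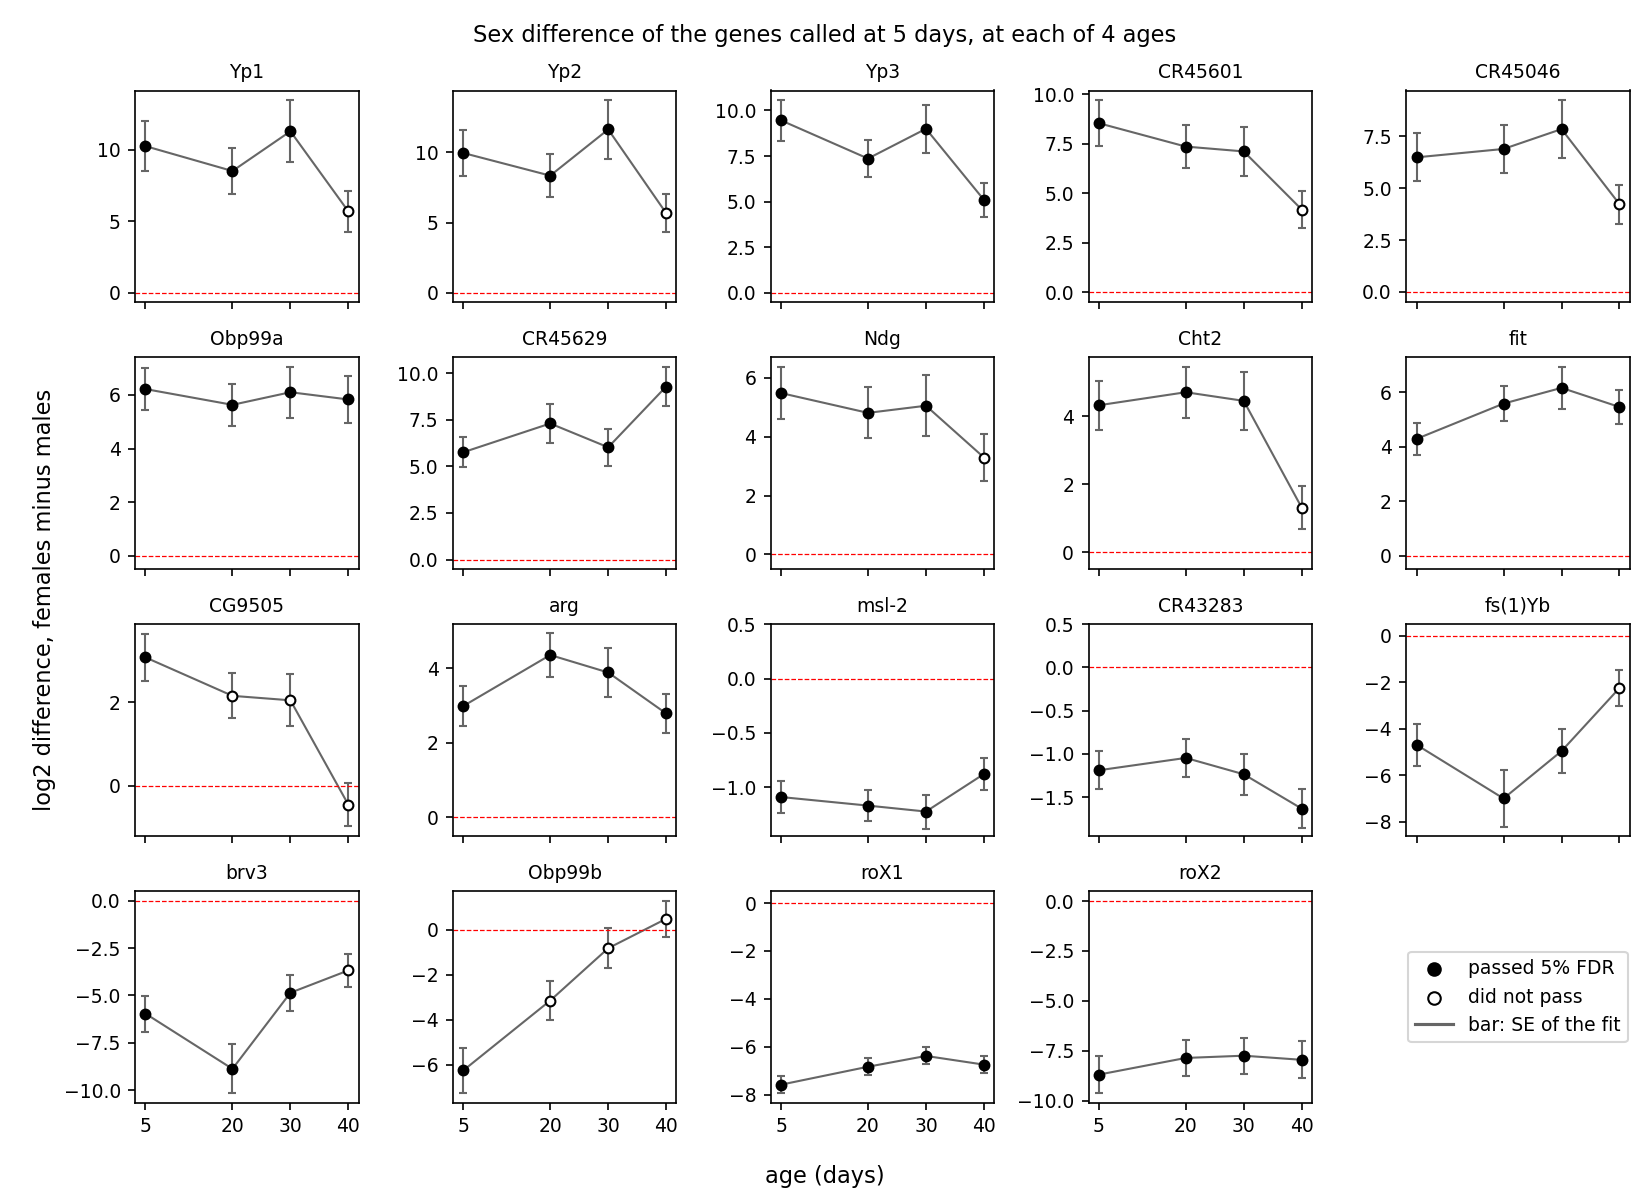
Log2 difference of females minus males at 5, 20, 30 and 40 days for the 19 genes called at 5 days, with the SE of the fit as bars, filled points where the gene passed a 5% FDR and open points where it did not. All 19 kept their sign at 20 and 30 days, and at 40 days Obp99b and CG9505 had crossed 0.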

How the data were processed

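RNA of 18 pooled brains per library was made into libraries with the Ovation Universal system. The authors used Trimmomatic 0.35 for trimming, STAR for alignment to the dm6 genome and HTSeq for counting. The deposited values are raw counts per gene, with no normalization. HTSeq ran in union mode and counted reads that mapped unambiguously. Whether counting used strand is not given in the sources used here. How well reads of overlapping genes on opposite strands were kept apart was not tested. Rows were matched to the Ensembl annotation of dm6, 12872 by symbol and 4455 by an older symbol, with 194 unmatched.

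Counts of 23 libraries in 8 groups of sex and age were fitted under R 4.3.3 by the quasi-likelihood method of edgeR 4.0.16, with TMM scaling, the filter filterByExpr, robust = TRUE and 15 residual degrees of freedom. The contrast was females minus males at 5 days, two-sided, with Benjamini-Hochberg adjustment over 11332 genes and a 5% FDR. The methods of the paper give no test between the sexes. P-values measure the spread between pools. Totals were 21133499 to 28687450 counts at 5 days, and intervals cover counting error only.

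The comparison, the 30 gene lists and the rule for named genes were chosen with earlier results of these data known. The rule took, in each direction, the 12 called genes with the largest difference, at least 5 CPM on average and no overlap of the sexes, the same for 8 named genes, all members of 4 short lists and the 2 smallest p-values of each other list. Not every gene of this pool is named.

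Alternatives were the 6 libraries alone, DESeq2 1.42.0, other scaling and filters, thinned counts, a replicate block, non-robust fits, removal of a length trend, a test against 1.5-fold, and each 5-day library left out. Leaving out 5 libraries with mex1 above 10 CPM, and scaling by totals without yolk protein genes, were chosen after seeing the data. The test was tried on simulated counts. Sequences are not shown here.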

Additional observations from a re-analysis of the deposited data

How the results depend on the processing

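Calls ranged widely between settings. Against 19 calls (12 higher in females, 7 in males), edgeR on the 6 libraries alone gave 3 (2 and 1). DESeq2 gave 63 (46 and 17) over 8 groups and 73 (57 and 16) on the 6 libraries. The test against 1.5-fold gave 15 (11 and 4), all among the 19. Without the 5 libraries with mex1 above 10 CPM, chosen after seeing the data, there were 8 (4 and 4). Leaving out each 5-day library gave 10 to 20 calls, 6 to 15 higher in females and 3 to 7 in males, and a median difference of the X minus the autosomes of 0.00 to 0.05. The cause of this range was not tested. Fits of 6 libraries have 4 residual degrees of freedom in place of 15. Other scalings, filters, thinned counts, non-robust fits and length correction gave 19 to 23 calls, and totals without yolk protein genes gave 13.

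Of the 19 genes, the number called at 20, 30 and 40 days was 16 to 17, 15 to 18 and 9 to 10 when a 5-day library was left out. It was 9 at 20 days and 3 at 40 days without the mex1 libraries, which left only replicate C of the 30-day females. At 30 days it was 10 against 1.5-fold. The sign of 3 genes that did not pass changed: msl-1 was at 0.0092 with the length trend removed, msl-3 at 0.011 on totals without yolk protein genes and at -0.097 to 0.022 when a library was left out, and Clamp at -0.014 to 0.078 when a library was left out.

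Replicate letters did not pair the samples, with correlations of deviations from the sex means of 0.44 (A), -0.48 (B) and -0.60 (C). Pairs of different letters ran from -0.35 (F5A and M5B) to 0.76 (F5C and M5B), with 0.58 for F5B and M5C. A block by letter does not follow these pairs. With the letter as a replicate block, the 6 libraries gave 1 call higher in females and 0 in males, of CG33109 (log2 difference 9.32, adjusted p = 0.0467), which is none of the 19. The block in the fit of 8 groups gave 16 calls, all among the 19, and 10 of the 19 genes were called at 30 days.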
